A study of Rattus norvegicus with 8 samples.

Results

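The ubiquitin-conjugating enzymes, or E2 enzymes, of rat blood were examined as the probe sets that the array's annotation assigns to exactly 1 gene with a symbol beginning Ube2. Ube2l6, the E2 enzyme of the interferon-induced modifier ISG15, was left out. This gave 51 probe sets of 28 genes, among 31042 probe sets tested and 14217 genes named alone by a probe set, and 51 of the 51 carried the same symbol in RefSeq (assembly GRCr8). The arrays held peripheral whole blood of male Wistar rats, bought at 7 weeks of age, acclimated for a week and then fed for 8 weeks. The groups compared were a high-fat diet (4 arrays) and that high-fat diet with 1% mulberry leaf powder (4 arrays), so both groups ate the high-fat feed. Blood was drawn on day 56 after an overnight fast. Each diet group held 10 rats; the labels call the arrays biological replicates without saying whether an array holds 1 rat or a pool. A p-value here therefore measures only how far these samples spread, which may be technical. The normal-diet group of the design was not analysed here.

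Ubiquitin is attached to proteins by a relay of enzymes. An activating enzyme (E1) loads ubiquitin, an E2 enzyme carries it on a cysteine, and a ligase (E3) selects the substrate, while the E2 enzyme often decides which kind of ubiquitin chain is built. Some E2 enzymes carry related modifiers such as SUMO or NEDD8 in place of ubiquitin. In blood the pathway is known for the maturation of reticulocytes, which clear many of their remaining proteins and organelles, and for antigen presentation and signalling in white cells.

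The values deposited by the authors were read as log2 probe set summaries, from 5.17 to 15.3, and they hardly varied between arrays. This spread is far below what such arrays usually give, and how the values came to be so close is unknown, so an SD or a difference on this scale cannot be read as the usual log2 change. The median SD of a probe set over the 8 arrays was 5.31e-06, and the E2 probe sets had SDs from 1.57e-07 to 0.000519 (median 7.28e-06). Differences are therefore given in SD units, that is, the mulberry mean minus the high-fat mean over the SD of the probe set across the 8 arrays. With 4 arrays per diet this quantity cannot exceed 1.87 in size. As a check of the tissue, each marker gene was taken by its brightest probe set, unlike the E2 genes, for which all probe sets were kept. The 19 measured erythroid markers had a median level at percentile 97.1 of all probe sets, with the haemoglobin gene Hbb at 15.1 as the brightest. Lymphocyte markers (15 measured) stood at a median percentile of 95.8, platelet markers (9) at 98.3, monocyte markers (9) at 83.7 and neutrophil markers (8) at 50.3.

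E2 transcripts gave strong signals in blood, and no E2 probe set passed the test between the diets. Their median level stood at percentile 78.5 of all probe sets, 37 of 51 were above the median, and 15 of 51 (29.4%) lay above the 90th percentile, as did 10.0% of all probe sets and 12.2% of those naming 1 gene. A probe set's signal depends on its probes as well as on its transcript, so the order below is one of signal, not of transcript number. Detection calls were not used, so a low signal cannot be told from none.

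**Figure D1:**
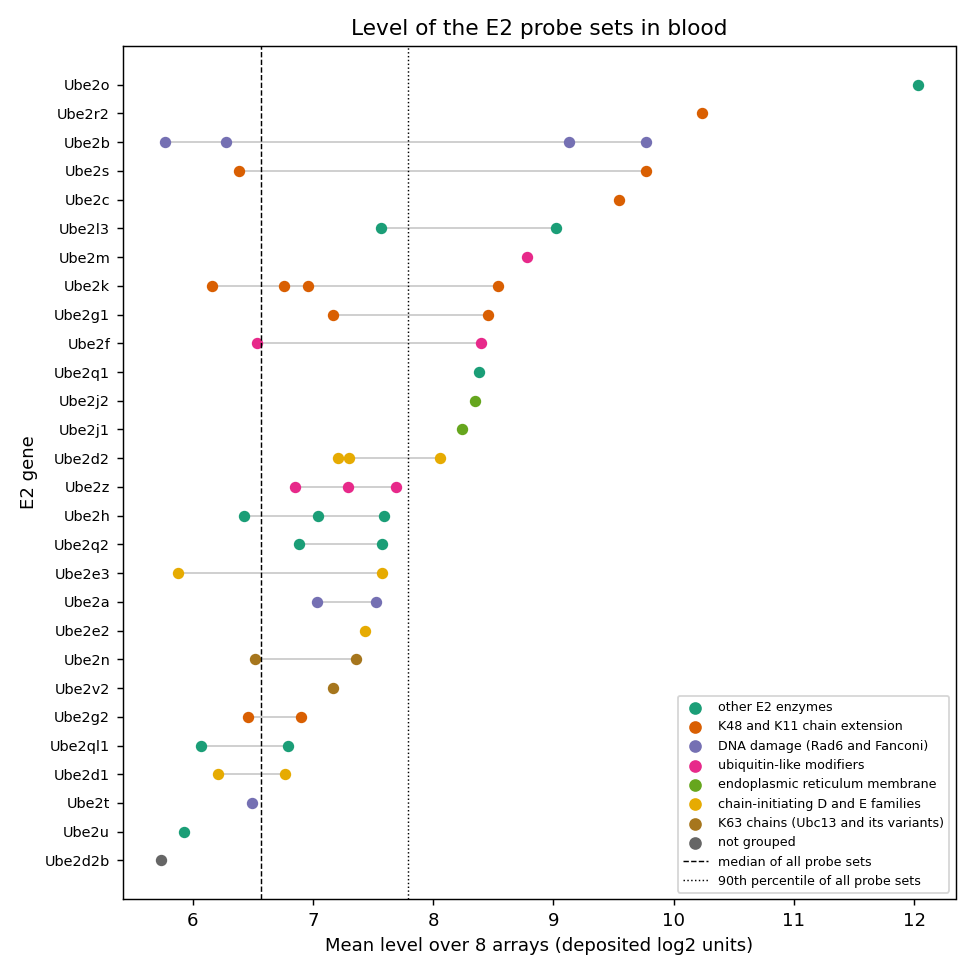
Mean level of the 51 E2 probe sets over the 8 arrays (deposited log2 units, horizontal axis) by gene (vertical axis, brightest gene on top), coloured by functional group; a grey line joins the probe sets of a gene and the vertical lines mark the median (6.57) and the 90th percentile (7.79) of all probe sets. Ube2o stands alone at 12.03, and the probe sets of Ube2b spread from 5.77 to 9.77.

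Ube2o led the E2 genes at a mean level of 12.03, rank 135 of all 31042 probe sets (percentile 99.6). It encodes a large enzyme that acts as both E2 and E3 and marks ribosomal and other proteins for destruction in maturing reticulocytes. Ube2r2, a relative of Cdc34 that works with cullin ligases, followed at 10.23 (rank 348). The Rad6 homologue Ube2b, which pairs with ligases of DNA damage tolerance and of the N-degron pathway, came next at 9.77 (rank 469). Ube2s at 9.77 and Ube2c at 9.55, both partners of the anaphase-promoting complex in dividing cells, were at ranks 471 and 553. A further Ube2b probe set at 9.13, Ube2l3, the partner of HECT and RBR ligases, at 9.02, and Ube2m, the E2 enzyme of NEDD8, at 8.78 completed the 8 brightest. The smallest gap between neighbours among these 8 was 0.00274, between Ube2b and Ube2s, and no SD over the arrays exceeded 0.000519, so the order of signal was the same in every array.

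At the other end, Ube2d2b, a testis-type copy of Ube2d2, had the lowest level of the 51 at 5.73 (percentile 4.15). Ube2u was at 5.92 (percentile 10.5). Probe sets of genes that were bright elsewhere also sat low, among them the Ube2b probe set 1391912_at at 5.77 and an Ube2e3 probe set at 5.88. The level of a gene therefore depended on the probe set. Over the 16 genes with several probe sets, the brightest and the dimmest differed by 0.44 (Ube2g2) to 4.01 (Ube2b), with a median of 1.00 on the deposited log2 scale.

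Promoter sequences, from RefSeq (GRCr8), were at hand for 24 of the 28 genes (27 promoters). No sequence was at hand for Ube2o, Ube2r2, Ube2c or Ube2v2, so the brightest genes, Ube2o and Ube2r2, are not covered. The 250 bases before the start were read on the strand of the gene. The E2 promoters had a median GC content of 64.4% (range 43.6% to 83.6%) and a median of 26 CpG dinucleotides, against 54.0% and 8 for 21849 protein-coding promoters of the same length. The GC box letters GGGCGG, searched on both strands, were in 17 of 27, against 38.9% of the protein-coding promoters. The letters CCAAT were in 33.3% against 35.0%, and AGATAA, letters that GATA factors can bind, in 3.7% against 9.17%. Overlaps between motifs were allowed, and a match is a description of letters only. The 2 promoters shown were taken because they belong to the brightest and the dimmest E2 gene with a single entry, with matches to any of the 3 motifs in capitals.
Ube2b (GRCr8, chr10:36763944-36764193, minus strand): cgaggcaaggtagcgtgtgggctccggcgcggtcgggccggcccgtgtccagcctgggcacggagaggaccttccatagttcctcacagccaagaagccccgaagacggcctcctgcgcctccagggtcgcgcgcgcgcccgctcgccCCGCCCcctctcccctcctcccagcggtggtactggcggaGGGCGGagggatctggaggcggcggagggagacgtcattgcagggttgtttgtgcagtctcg
Ube2d2b (GRCr8, chr14:2062401-2062650, minus strand): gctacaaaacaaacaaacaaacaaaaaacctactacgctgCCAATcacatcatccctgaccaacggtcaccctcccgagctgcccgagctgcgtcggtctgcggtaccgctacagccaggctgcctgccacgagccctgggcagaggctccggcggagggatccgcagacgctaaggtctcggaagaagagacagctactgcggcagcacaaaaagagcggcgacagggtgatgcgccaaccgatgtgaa
The Ube2b stretch had 71.2% GC, 27 CpG dinucleotides and 2 GC boxes, and the Ube2d2b stretch 59.2% GC, 19 CpG dinucleotides, 1 CCAAT and no GC box. The 3 promoters of Ube2u, the gene just above Ube2d2b in signal, held 4 or 5 CpG dinucleotides, and that of the bright Ube2l3 held 3.

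Between the diets, 0 of the 51 E2 probe sets passed an adjusted p of 0.05 in limma, as did 0% of all probe sets tested. By unadjusted limma p, 3 of 51 were under 0.05, against 4.36% of all probe sets, which is a share near the background. In mean level 32 E2 probe sets were lower and 19 higher with mulberry, against 47.3% lower and 52.7% higher of all probe sets. Their median difference was -0.21 SD units, against 0.0559 for all probe sets. This direction did not hold under either other scaling. After quantile normalization 15 were lower, 22 higher and 14 equal (median 0, as for all probe sets, of which 44.6% were lower and 28.1% higher). Under median centring 2 were lower and 49 higher (median 1.15, as for all probe sets, of which 3.07% were lower and 96.9% higher).

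**Figure D2:**
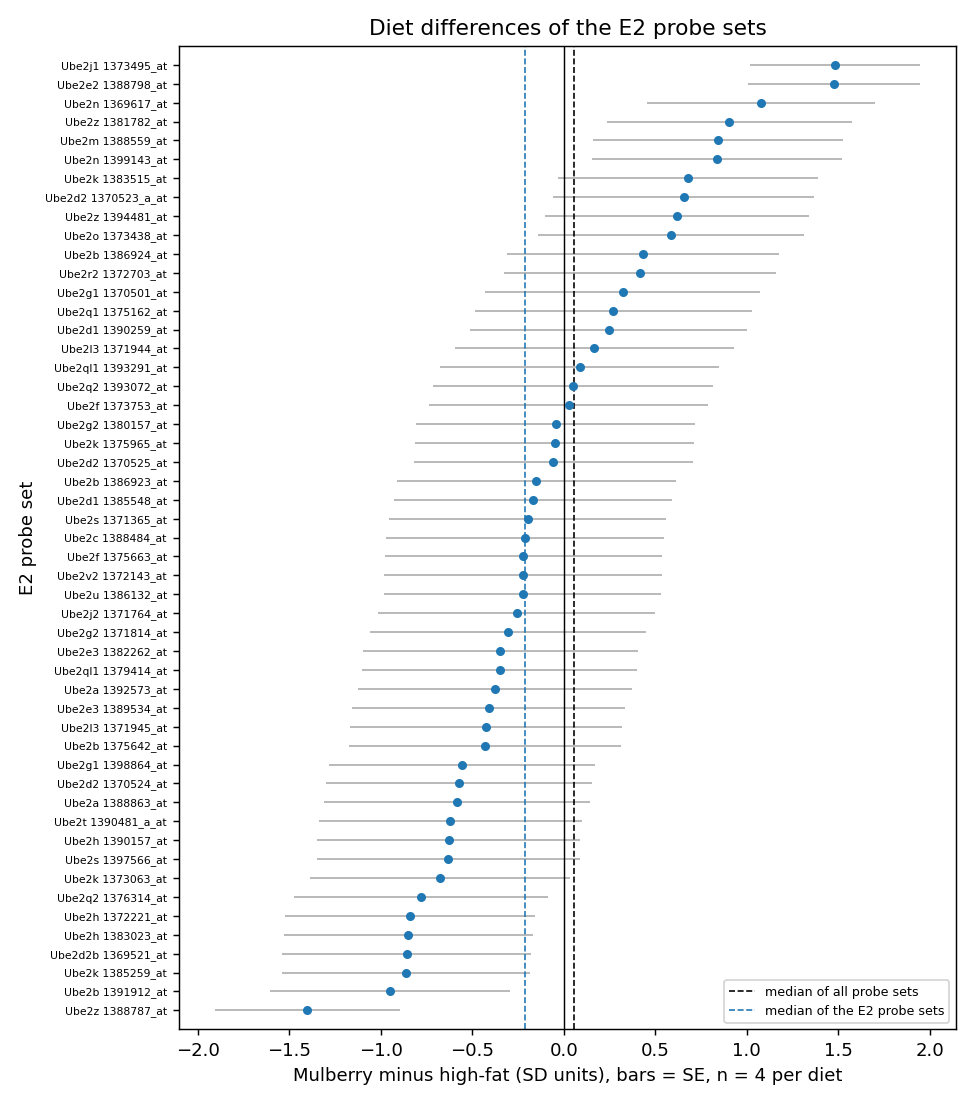
Mulberry minus high-fat difference of each of the 51 E2 probe sets in SD units (horizontal axis), with SE bars (n = 4 arrays per diet), ordered by size (vertical axis). The points run from -1.40 (Ube2z) to 1.48 (Ube2j1) and the E2 median of -0.21 lies below the median of all probe sets at 0.0559; the E2 median was 1.15 under median centring and 0 after quantile normalization.

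Of the 51, 1 probe set had diets that did not overlap, Ube2e2, against 2.52% of all probe sets. Ube2e2 belongs to the E family of E2 enzymes, which can place the first ubiquitin on a substrate. In the high-fat arrays 1 to 4 its deviations from the mean of all 8 arrays were -0.474, -0.00272, -0.886 and -1.59 SD units, and in the mulberry arrays 0.0988, 0.573, 1.64 and 0.641. Every mulberry array was above every high-fat array, with high-fat replicate 2 and mulberry replicate 1 close to each other. The difference was 1.48 ± 0.468 SD units (SE, n = 4 per diet; limma unadjusted p = 0.0127, adjusted p = 1; exact two-sided permutation p = 0.0286, the smallest that 4 against 4 arrays allow). On the deposited scale that was a difference of 5.75e-05 at a level of 7.44. The difference kept its sign after quantile normalization (0.827) and was 1.39 after median centring. Centring raises every mulberry minus high-fat difference by the same amount, so a positive difference could not turn there. A brighter probe set that the annotation gives to both Ube2e1 and Ube2e2, at a level of 8.46, went the opposite way. Its difference was -0.811 SD units on the deposited scale, and its signal cannot be assigned to either gene.

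Ube2j1, anchored in the membrane of the endoplasmic reticulum, where it serves the disposal of misfolded proteins, had the highest difference of the 51. Its deviations were -1.08, -0.834, 0.126 and -1.18 SD units in the high-fat arrays and 1.60, -0.098, 0.527 and 0.939 in the mulberry arrays. High-fat replicate 3 lay above mulberry replicate 2, so the diets overlapped. The difference was 1.48 ± 0.465 SD units (SE, n = 4 per diet; limma unadjusted p = 0.0121, adjusted p = 1; exact permutation p = 0.0571). It kept its sign after quantile normalization (0.935) and was 1.55 after median centring, which could not turn a positive difference. The related Ube2j2, chosen after its values were seen, at nearly the same level (8.35 against 8.24), had a difference of -0.256 ± 0.757, which both other scalings turned, to 0.707 (quantile normalization) and 1.17 (median centring).

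**Figure D3:**
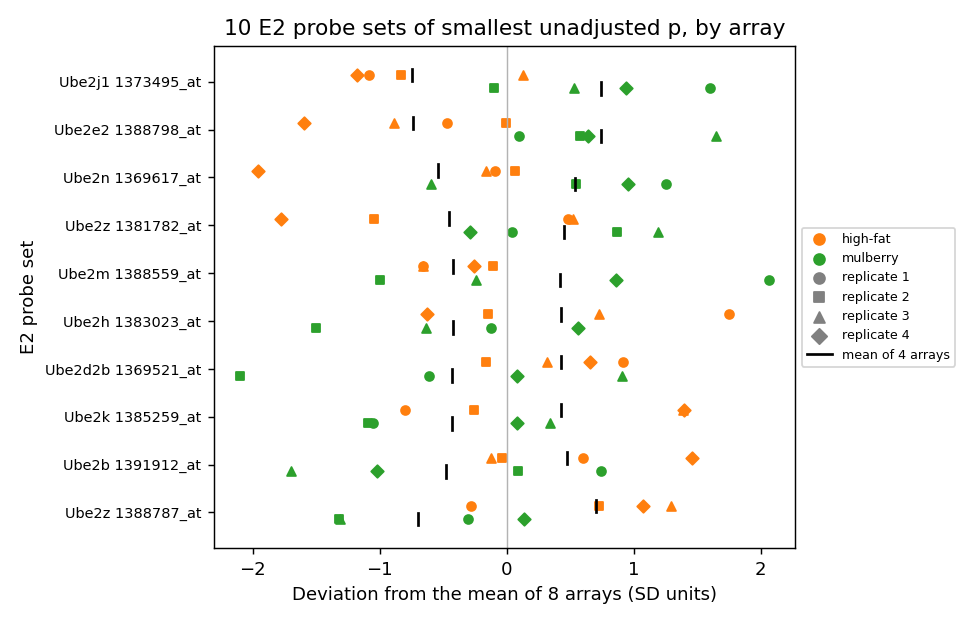
Deviation of each array from the mean of the 8 arrays in SD units (horizontal axis) for the 10 E2 probe sets of smallest unadjusted p (vertical axis); orange marks high-fat, green marks mulberry, the marker shape gives the replicate and black ticks are the means of 4 arrays. The diets separate for Ube2e2 alone, where the highest high-fat array is at -0.00272 and the lowest mulberry array at 0.0988.

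Ube2z, which receives ubiquitin or the modifier FAT10 from the activating enzyme Uba6, held the lowest difference. In probe set 1388787_at the high-fat arrays deviated by -0.284, 0.723, 1.29 and 1.07 SD units and the mulberry arrays by -0.308, -1.32, -1.31 and 0.139. High-fat replicate 1 lay among the mulberry arrays. The difference was -1.40 ± 0.506 SD units (SE, n = 4 per diet; limma unadjusted p = 0.0246, adjusted p = 1; exact permutation p = 0.0571), and its sign turned in both other scalings, to 0.157 (quantile normalization) and 1.06 (median centring). The other probe sets of the gene went the opposite way, at 0.906 ± 0.668 (1381782_at, 0 after quantile normalization) and 0.621 ± 0.720 (1394481_at).

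The remaining probe sets of smallest p had differences larger than their errors, and none had an unadjusted limma p under 0.05. Ube2n, which builds K63-linked chains in immune signalling, had 1.08 ± 0.624 SD units in the dimmer of its probe sets (-0.707 after quantile normalization) and 0.837 ± 0.683 in the brighter. High-fat replicate 4 stood at -1.96 in the dimmer probe set while the other high-fat arrays were between -0.166 and 0.0625. Ube2m, the NEDD8 enzyme that switches on cullin ligases, had 0.843 ± 0.682, with mulberry replicate 1 at 2.06 and mulberry replicate 2 at -0.995, the highest and the lowest of the 8 arrays. The dimmest Ube2b probe set had -0.949 ± 0.658 (1.13 after median centring, 0 after quantile normalization). An Ube2k probe set (1385259_at) had -0.861 ± 0.678 and Ube2d2b -0.859 ± 0.679; median centring turned them to 0.918 and 0.912, and quantile normalization left both at 0. Ube2k extends K48-linked chains, the signal for the proteasome.

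The brightest members were chosen by level and not by p, so smaller differences than those above follow from the choice. Ube2m, also among the brightest, is given above. Ube2o deviated by 0.465, -0.813, 0.877 and -1.70 SD units in the high-fat arrays and by 0.940, -0.932, 0.698 and 0.467 in the mulberry arrays, a difference of 0.587 ± 0.725 (SE, n = 4 per diet; exact permutation p = 0.457; 0 after quantile normalization). Both diets thus held arrays well above and well below the mean. Ube2r2 had 0.419 ± 0.744, Ube2l3 0.168 ± 0.761, and the probe sets of Ube2b -0.149 ± 0.761 and -0.428 ± 0.744. Ube2s had -0.197 ± 0.760 and Ube2c -0.21 ± 0.759. Ube2r2, Ube2l3, Ube2c and the brightest Ube2b probe set were at 0 after quantile normalization. There the other bright Ube2b probe set turned to 0.707, and median centring turned Ube2c and these Ube2b probe sets to 0.982, 1.05 and 0.799. Each of these 7 differences was smaller than its SE, so a difference of that size in either direction was not detectable with 4 arrays per diet.

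Probe sets of the same gene gave a direction in common for 6 of the 16 genes with several. These were Ube2n, higher in both, and Ube2a, Ube2e3, Ube2g2, Ube2h and Ube2s, lower in each of their probe sets. In the other 10 genes the directions were mixed, as in Ube2k, whose 4 probe sets ran from -0.861 to 0.681. With the brightest probe set of each gene, 19 of 28 genes were lower and 9 higher with mulberry, against 50.9% lower of all 14217 genes. After median centring 2 of the 51 probe sets were still lower, against 3.07% of all probe sets, so most of the lower directions turned there.

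Ube2h, an E2 enzyme whose transcript builds up in late red cell precursors and which works with the CTLH ligase, had one array in common at the top of its probe sets. High-fat replicate 1 was the highest of the 8 arrays in each of its 3 probe sets, at 2.31, 2.01 and 1.75 SD units. The same array had the highest score of the erythroid markers, 0.839, where a score is the mean deviation of the markers in SD units. In the mulberry arrays the 3 probe sets lay between -1.50 and 0.562. The differences were -0.839 ± 0.683, -0.628 ± 0.719 and -0.85 ± 0.68 (n = 4 per diet). Median centring turned the first and the last to 0.974 and 0.435 and left the middle one at -0.536, and after quantile normalization the first was at 0. With the erythroid score in the model the differences were -0.485, -0.142 and -0.358, and with the hybridization controls -0.0479, -0.167 and -0.268. With the polyA controls they were -0.583, -0.749 and -1.13. Ube2o, named above for maturing reticulocytes, was at 0.465 in high-fat replicate 1 and highest in mulberry replicate 1 (0.940). Its difference of 0.587 became 1.04 with the erythroid score. In bulk blood fewer cells of a type and less RNA per cell cannot be told apart.

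**Figure D4:**
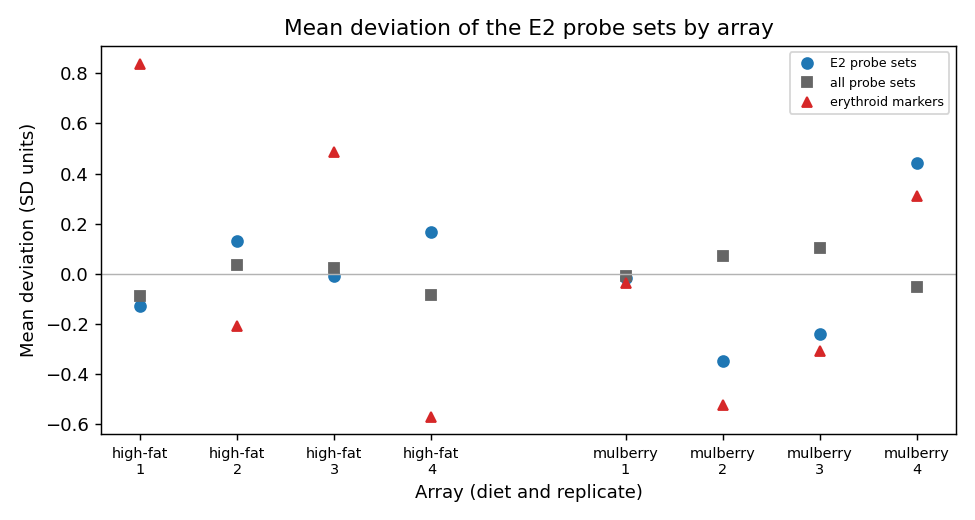
Mean deviation in SD units (vertical axis) of the 51 E2 probe sets (blue circles), of all probe sets (grey squares) and of 19 erythroid markers (red triangles) in each array (horizontal axis, diet and replicate). Mulberry replicate 4 is highest for the E2 probe sets at 0.442 and mulberry replicate 2 lowest at -0.347, both in the same diet.

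Across arrays, the E2 probe sets spread further within the mulberry diet than the diet means lay apart. Their mean deviation was -0.128, 0.13, -0.00985 and 0.166 SD units in the high-fat arrays 1 to 4 and -0.0144, -0.347, -0.239 and 0.442 in the mulberry arrays. The means were 0.0396 ± 0.135 (SD, n = 4) and -0.0396 ± 0.35 (SD, n = 4), a difference of -0.0792. In mulberry replicate 4, 38 of 51 E2 probe sets (74.5%) were above their own mean, against 47.5% of all probe sets. In mulberry replicates 2 and 3 it was 21 of 51 (41.2%), against 52.0% and 54.4% of all. Mulberry replicate 2 was the lowest array for 14 of the 51 (27.5%), against 8.68% of all probe sets. High-fat replicate 4 was the highest for 14 (27.5%) and the lowest for 8 (15.7%), against 14.4% and 16.7% of all. Without mulberry replicate 4 the E2 median difference was -0.481, and without mulberry replicate 2 it was -0.0503, with no E2 probe set past the threshold in either case.

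Marker and control scores also differed between these arrays, and their part in the E2 values was not tested beyond the covariate fits named here. The erythroid score ran from -0.569 to 0.839 in the high-fat and from -0.521 to 0.312 in the mulberry arrays, with 13 of 19 markers lower with mulberry. Platelet markers ran from -1.54 to 0.203 and from -0.358 to 1.6, with 9 of 9 higher and mulberry replicate 4 the highest. Lymphocyte markers ran from -0.434 to 0.891 and from -0.609 to 0.111, with 13 of 15 lower. Monocyte markers ran from -0.494 to 1.93 and from -1.11 to 0.454, with 8 of 9 lower. Neutrophil markers ran from -1.43 to 0.42 and from -0.351 to 0.654, with 6 of 8 higher. With 1 probe set per gene, 50.9% of all genes were lower with mulberry and 49.1% higher. The marker directions were read on the deposited scale only, and a change in cell types was not tested. The hybridization controls averaged -0.558 in the high-fat and 0.558 in the mulberry arrays, and the polyA controls -0.421 and 0.421. When the hybridization controls entered the model, 26 E2 probe sets were lower and 25 higher (median -0.0479), against 50.9% lower of all probe sets. With the polyA controls 33 were lower and 18 higher (median -0.36), against 48.4% lower of all. With the erythroid score 29 were lower and 22 higher (median -0.142), against 47.9% lower of all.

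By role, no group of E2 enzymes held a probe set past the adjusted threshold. The group of enzymes that build K48- or K11-linked chains held Ube2k, Ube2r2, Ube2g1, Ube2g2, Ube2c and Ube2s. Of its 12 probe sets, 9 were lower and 3 higher, with a median of -0.204 SD units. The 7 probe sets of Ube2a, Ube2b and Ube2t, known from DNA repair, had 6 lower and 1 higher (median -0.428). Among the 8 of the chain-initiating D and E families, 5 were lower and 3 higher (median -0.111). The enzymes of ubiquitin-like modifiers, Ube2f, Ube2m and Ube2z, had 2 lower and 4 higher (median 0.324), and the 3 probe sets of Ube2n and its catalytically inactive partner Ube2v2 had 1 lower and 2 higher (median 0.837). The 12 probe sets of the other enzymes, from Ube2o to Ube2u, had 7 lower and 5 higher (median -0.288). These splits stand beside 47.3% lower for all probe sets, and after median centring 49 of the 51 were higher, as were 96.9% of all.

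In the rest of the pathway, 111 of 128 listed genes were measured with 212 probe sets, of which 0 passed the adjusted threshold and 11 (5.19%) had an unadjusted limma p under 0.05, against 4.36% of all probe sets. In mean level 116 (54.7%) were lower and 96 higher (median -0.154 SD units), against 47.3% lower of all. Of the activating enzymes 8 of 15 probe sets were lower, of the modifiers themselves 3 of 6, of the E2-like proteins without the Ube2 name 4 of 9, of the ligases 69 of 126 and of the deubiquitinating enzymes 32 of 56. The members of smallest p were Usp34, a deubiquitinating enzyme of Wnt signalling, at -1.70 ± 0.32 SD units, and Mdm2, the ligase of p53, at -1.68 ± 0.335. On the other side were Aktip, an E2-like protein without a catalytic cysteine, at 1.65 ± 0.361, and Rnf123, the ligase also called KPC1, at 1.42 ± 0.497. Adjusted p was 1 for these 4 in limma. Median centring turned Mdm2 to 1.00 and left Usp34 at -0.328, Aktip at 1.53 and Rnf123 at 1.29, and after quantile normalization the 4 were at -1.32, -1.52, 1.54 and 0.707.

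A set of 8 further probe sets could not be assigned, because the annotation gives them a pair of E2 genes each: Ube2d2 with Ube2d3, Ube2e1 with Ube2e2, or Ube2v1 with a related copy. Their levels ran from 6.19 to 10.6, and 6 of the 8 were above the 90th percentile of all probe sets. Ube2d3, Ube2e1 and Ube2v1 were thus represented in blood by shared signal only, and their place in the order is not given here.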

How the data were processed

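Biotinylated aRNA made from 200 ng of total RNA was hybridised to an Affymetrix rat expression array, per the labels' protocols. The deposited values were read as log2 probe set summaries from their range. How the authors summarised the probes and normalized the arrays was not given in the sources used here. Of 31099 probe sets, 57 manufacturer controls were left out and 31042 tested. Genes came from the annotation of the platform, and all 28 E2 gene numbers matched RefSeq (GRCr8).

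Diets were compared two-sided and without covariates in R 4.3.3 by lmFit and eBayes (limma 3.58.1). Benjamini-Hochberg adjustment ran over all 31042 probe sets with a threshold of 0.05. For single probe sets all 70 assignments of the arrays to the diets were also enumerated (exact permutation test, two-sided, smallest p 0.0286). The fit was tested on simulated data. Differences are given for the 8 brightest E2 probe sets and the 10 of smallest unadjusted p, 17 in all. Values by array are drawn for the 10 of smallest p and printed for some probe sets only. Pathway genes are named for the 2 of smallest p in each direction. The members and lists were chosen with earlier results of these data known. Alternatives covered scaling, covariates, variance models, filters on probe sets, a replicate block and leaving out each array. Protein sequences were not used here.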

Additional observations from a re-analysis of the deposited data

Results flagged for a closer look

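In the dimmer Ube2n probe set (1369617_at), high-fat replicate 4 stood apart from the other high-fat arrays, at -1.96 SD units against a range of -0.166 to 0.0625. The gap to its nearest neighbour was 0.887 of the range of the 4 arrays, above the 95% critical value of Dixon's test. Among 36 groups of 4 arrays examined this way, this was the 1 that passed, and chance alone passes about 1 in 20.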

How the results depend on the processing

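No E2 probe set passed the adjusted threshold under the main setting or any of the 19 others. The lowest adjusted p of a named E2 probe set was 0.162, after median centring. Quantile normalization called 12 of all probe sets, none of them E2, with 29.4% of the E2 probe sets lower, 14 of the 51 equal between the diets, and a median of 0 for both the E2 and all probe sets. Its values lie a median of 6.17e-05 apart, above most probe set SDs, so small differences can be lost or turned by construction. Median centring left 3.92% of the E2 probe sets lower, against 3.07% of all, with an E2 median of 1.15. The mulberry minus high-fat difference of the array medians was -3.45e-05, which centring takes from every probe set. The median of all probe sets turned to -0.0194 with the hybridization controls in the model, -0.0135 in the brighter probe sets and -0.019 with 1 probe set per gene, while the E2 median kept its sign.

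Named probe sets turned as follows. Median centring takes the array-median difference of -3.45e-05 from every difference, so a negative difference smaller in size than that turns by arithmetic. The cause of the other turns was not tested. After quantile normalization Ube2b (1375642_at) was at 0.707, Ube2z (1388787_at) at 0.157 and Ube2n at -0.707. After median centring Ube2b was at 1.05 (1386923_at), 0.799 (1375642_at) and 1.13 (1391912_at), Ube2c at 0.982, Ube2z (1388787_at) at 1.06, Ube2k at 0.918, Ube2d2b at 0.912 and Ube2h (1383023_at) at 0.435. With the hybridization controls Ube2c was at 0.884, Ube2b (1375642_at) at 0.0255 and Ube2l3 at -0.291. With the polyA controls Ube2r2 was at -0.471 and Ube2l3 at -0.903. With the erythroid score Ube2b (1386923_at) was at 0.0889 and Ube2c at 0.173, and with array weights Ube2l3 was at -0.0291.

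Leaving out 1 array at a time gave an E2 median from -0.481 (without mulberry replicate 4) to -0.0503 (without mulberry replicate 2), and 54.9% to 64.7% of E2 probe sets lower. Ube2r2 ran from -0.0639 to 0.969, Ube2b (1386923_at) from -0.651 to 0.456, Ube2s from -0.93 to 0.38, Ube2c from -1.13 to 0.113 and Ube2l3 from -0.296 to 0.782. Without a turn in sign, Ube2o ran from 0.149 to 0.994, Ube2m from 0.496 to 1.33, Ube2b from -0.926 to -0.0311 (1375642_at) and -1.31 to -0.689 (1391912_at), Ube2d2b from -1.30 to -0.528, Ube2k from -1.24 to -0.604, Ube2h (1383023_at) from -1.15 to -0.535, Ube2z from 0.617 to 1.17 (1381782_at) and -1.61 to -1.31 (1388787_at), Ube2n from 0.902 to 1.39, Ube2e2 from 1.42 to 1.60 and Ube2j1 from 1.41 to 1.64.

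Whether the replicate numbers pair the arrays cannot be told from these values. Same-numbered arrays correlated at -0.0462, -0.0505, 0.246 and 0.163 in their deviations from the diet means over all probe sets. Of the 4 high-fat arrays, 2 correlated best with their own number. With the replicate block 0 probe sets were called and the E2 median was -0.21, as without it; 1728 unadjusted p-values were under 0.05 against 1352. Signal over background was not used here.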
